A study of Mus musculus with 4 samples.

Results

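The genes described here encode enzymes that make reactive oxygen species (ROS). They were the NADPH oxidase catalytic subunits Nox4, Cybb and Duox1, the membrane partner Cyba, the cytosolic subunits Ncf1 and Ncf4, the small GTPases Rac1 and Rac2, and xanthine dehydrogenase (Xdh). These 9 genes were taken by their Ensembl identifiers from the 55401 genes counted, and all 9 had a row in every table of counts. RNA had been sequenced from 4 libraries of C57BL/6 mouse tissue, 1 each from the kidney after cecal ligation puncture (CLP), the kidney after melatonin and CLP (CLP + MLT), the heart after CLP and the heart after melatonin and CLP. CLP is a surgical model of sepsis in which gut contents leak into the abdomen. The study describes male mice aged 8 weeks, melatonin dissolved in ethanol and given at 25 μg/ml in the drinking water for 14 days before surgery, and kidneys taken 24 h after surgery. It gives no dose or time for the hearts. The labels of the melatonin libraries carry a 4 that is not explained, apart from the treatment label of the heart. Each group had 1 library, the number of mice behind it is not stated, and no library from unoperated or sham mice was analysed here. No difference below therefore has a replicate check.

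NADPH oxidases pass electrons from NADPH across a membrane to oxygen. Cybb (gp91phox, also called Nox2) is the catalytic subunit of phagocytes and works only as a complex with Cyba (p22phox), cytosolic subunits that include Ncf1 (p47phox) and Ncf4 (p40phox), and a Rac GTPase. Nox4 is the main oxidase of kidney tubule cells, needs Cyba but none of the cytosolic subunits, and releases mostly hydrogen peroxide. Duox1 is an oxidase of epithelial surfaces such as the airway and thyroid. Xdh oxidises hypoxanthine and xanthine to urate and can be converted to an oxidase form that makes superoxide.

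The promoters of Nox4 and Cybb are shown as those of the tubular and the phagocytic catalytic subunit. Each covers 250 bases before to 50 bases after the gene's start in RefSeq (build GRCm38.p6), written 5′ to 3′ on the gene's strand. That of Cybb is chrX:9469275-9469574 on the minus strand, and that of Nox4 is chr7:87246399-87246698 on the plus strand. The GENCODE models of both genes extend further upstream than these RefSeq starts. Capitals mark the core GAGGAA of sites bound by PU.1, the myeloid transcription factor encoded by Spi1, searched on both strands, so that TTCCTC is the same core on the other strand.
Cybb: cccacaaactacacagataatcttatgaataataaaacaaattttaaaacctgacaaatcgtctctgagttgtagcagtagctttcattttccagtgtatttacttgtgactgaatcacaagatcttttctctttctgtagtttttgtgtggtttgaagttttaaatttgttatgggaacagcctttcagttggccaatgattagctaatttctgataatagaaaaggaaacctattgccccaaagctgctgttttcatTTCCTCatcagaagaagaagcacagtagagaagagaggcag
Nox4: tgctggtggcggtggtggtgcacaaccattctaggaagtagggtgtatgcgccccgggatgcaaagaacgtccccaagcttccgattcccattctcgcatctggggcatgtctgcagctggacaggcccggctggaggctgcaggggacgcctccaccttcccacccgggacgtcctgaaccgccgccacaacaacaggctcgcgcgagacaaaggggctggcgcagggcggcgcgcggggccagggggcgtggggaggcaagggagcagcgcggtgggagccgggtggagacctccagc
Cybb held the core once, starting 9 bases after the gene's start, and Nox4 did not hold it. Of the 5 members found in the promoter table, the other 3 (Cyba, Duox1 and Ncf1) did not hold it either. The core was present in 28.3% of all 32851 promoters in the table, so a match describes these letters and not a site in use.

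The libraries held between 15883057 and 22927905 reads on genes. Mitochondrial genes took 14.8% of these reads in the CLP kidney, 24.2% in the CLP + MLT kidney, 31.6% in the CLP heart and 36.0% in the CLP + MLT heart. Levels are given as CPM, the share of a library's gene reads scaled to a fixed total, after TMM scaling within each tissue, and for comparisons between genes as CPM per kilobase of exon. No scaling factor was shared between kidney and heart. Heart levels set against kidney levels therefore also depend on the mitochondrial share of each library. The tissue labels held against marker genes: the cardiomyocyte gene Myh6 had 208975 and 158174 counts in the heart libraries against 69 and 61 in kidney, with CLP given first. The proximal tubule gene Slc34a1 had 31882 and 31051 counts in kidney. It also had 587 counts in the CLP heart and 1454 in the CLP + MLT heart, a tubule signal in heart that is set beside Nox4 below.

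The order of the levels differed between the tissues. In the CLP kidney, Cyba was highest at 273 CPM per kilobase, followed by Rac1 at 37.3, Nox4 at 8.82 and Xdh at 4.96, and each of these stood apart from its neighbour beyond the 95% Poisson interval of its counts. The phagocyte genes came next, with Rac2 at 1.54, Ncf1 at 1.05, Ncf4 at 0.767 and Cybb at 0.519 CPM per kilobase, and the intervals of each neighbouring pair of these 4 overlapped. In the CLP heart, Xdh was highest at 61.1, followed by Cyba at 40.9, Rac1 at 21.3, Ncf4 at 3.34, Rac2 at 2.49, Ncf1 at 2.19, Cybb at 0.929, Nox4 at 0.253 and Duox1 at 0.0815 CPM per kilobase. The neighbours Ncf4 and Rac2, and Rac2 and Ncf1, had overlapping intervals in that library. Nox4 thus ranked 3 of 9 in the CLP kidney and 8 of 9 in the CLP heart, and Xdh ranked 4 and 1. In the melatonin libraries Rac2 moved up 1 place in each tissue, above Xdh in kidney (3.70 against 2.82 CPM per kilobase) and above Ncf4 in heart (6.91 against 2.87). These intervals cover counting error only, because 1 library per group gives no measure of the variation between libraries. They also treat reads copied by PCR as independent molecules, which such reads are not.

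**Figure D1:**
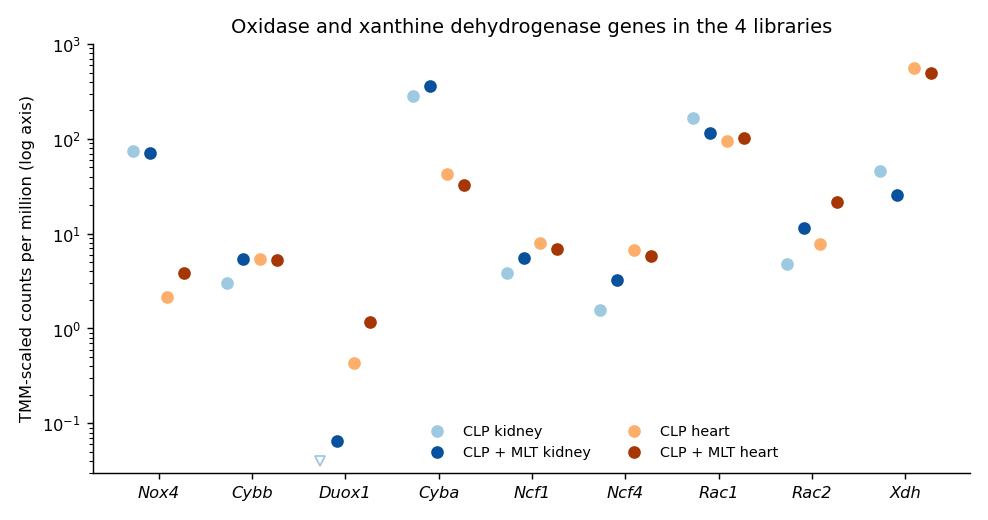
TMM-scaled CPM (log axis) of the 9 genes in the 4 libraries, 1 point per library and no error bar because each group has 1 library. The open triangle marks Duox1 in the CLP kidney, which had 0 counts. Nox4 sits near 70 CPM in kidney and under 4 CPM in heart, Xdh shows the reverse order, and Rac2 is higher in the CLP + MLT library of both tissues.

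Whether melatonin went with a different level of each gene was asked within each tissue by comparing the CLP + MLT with the CLP library. A gene was called higher or lower at a fold change of at least 1.5 with a p of at most 0.01 in an exact binomial test on the reads. This test includes counting error only, so it compares 2 libraries and not the conditions. In kidney, 8 of the 9 genes passed the filter of a mean of at least 10 counts, and 3 of them were called higher (Cybb, Ncf4 and Rac2) and 1 lower (Xdh). Over all 16932 kidney genes tested, 7.65% were called higher and 7.39% lower. In heart all 9 passed the filter, 2 were called higher (Nox4 and Rac2) and 0 lower, against 6.86% called higher and 8.75% lower of 15871 genes. Duox1 passed only in heart. The median log2 ratio of the members was 0.44 in kidney and −0.04 in heart, where the medians of all genes were 0.0029 and 0.0023. Scaling by total reads alone moved the median of all genes to −0.19 in kidney and 0.06 in heart, and every log2 ratio of a tissue moved with it. In either direction together, 4 of 8 members were called in kidney and 2 of 9 in heart, against 15.0% and 15.6% of all genes. The same shares of all genes stand beside the calls of the gene lists below.

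**Figure D2:**
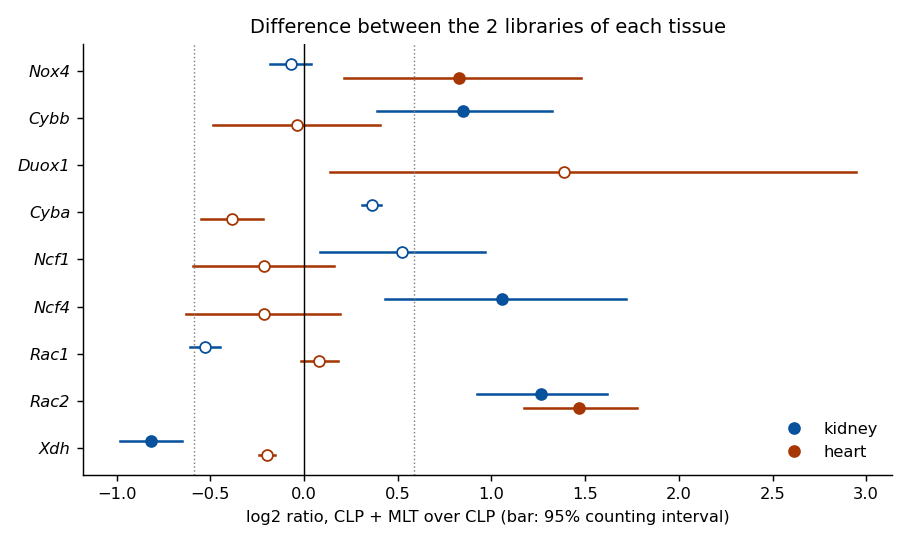
Log2 ratio of CLP + MLT over CLP for each gene in kidney and heart, with the 95% exact Clopper-Pearson interval of the read counts as bars. Filled points were called, open points were not, and the dotted lines mark a fold change of 1.5. Rac2 is the gene called in both tissues, and Duox1 is not drawn for kidney, where it did not pass the filter.

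Nox4 (ENSMUSG00000030562.17, mm10, chr7:87246096-87398710) was covered by 1832 counts in the CLP kidney and 1095 in the CLP + MLT kidney, or 74.7 and 71.1 CPM. The kidney levels lay close together, with a log2 ratio of −0.07 (95% interval −0.18 to 0.04). The interval ends at a level 1.03 times that of the CLP library and 0.883 times it, so a change of 1.5-fold lay outside it as far as counting error goes. With total reads as the scale, the log2 ratio became −0.27, a move equal to the shift of all genes.

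In heart Nox4 had 35 counts after CLP and 62 after melatonin and CLP, or 2.15 and 3.83 CPM. It was called higher, with a log2 ratio of 0.83 (0.21 to 1.48, p = 0.0072 in the exact binomial test). With Benjamini-Hochberg adjustment over all heart genes that p was 0.021, above the threshold of 0.01. The heart level was 2.87% of the kidney level for CLP and 5.38% for CLP + MLT.

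Most proximal tubule markers were also higher in the CLP + MLT heart library. Of 10 such markers 6 were called higher and 0 lower, their median log2 ratio was 0.93, and none was at 0 counts. Lrp2, the endocytic receptor megalin, went from 117 to 329 counts and Kap, an androgen-regulated kidney gene, from 4352 to 9602. Slc22a8, an organic anion transporter, went from 68 to 158. The sodium-coupled transporters Slc5a12 (15 and 5 counts, −1.49) and Slc5a2 (237 and 183, −0.36) lay below 0 and Slc22a6 (333 and 366, 0.15) close to it, none of them called. The summed tubule level in heart was 378 CPM for CLP and 792 CPM for CLP + MLT, against 22363 and 33511 CPM in kidney. In kidney 4 of the 10 were called higher and 3 lower, among them Miox (0.79) and Slc22a8 (0.73) on one side and the transporters Slc5a12 (−3.31) and Slc5a2 (−2.23) on the other, and with scaling by total reads 1 was higher and 3 were lower. The marker levels in heart were a median of 2.57% of those in kidney for CLP (1.46% to 7.47%) and 4.10% for CLP + MLT (2.08% to 27.3%), ranges that include the 2 values of Nox4. Counted against the 9 tubule markers other than Kap in the same library, Nox4 had 18.3 counts per 1000 in the CLP kidney, 14.3 in the CLP + MLT kidney, 19.4 in the CLP heart and 19.2 in the CLP + MLT heart. The log2 ratio on this measure was −0.01 (−0.63 to 0.63) in heart and −0.36 (−0.46 to −0.25) in kidney. Against the 8 endothelial markers it was 0.68 (0.06 to 1.32) in heart and 0.20 (0.09 to 0.31) in kidney. With Kap, which alone makes up most of the summed kidney level, the values were 3.34, 2.12, 5.69 and 4.83 per 1000 in the same order. The part of tubule RNA in the heart values of Nox4 was not tested.

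**Figure D3:**
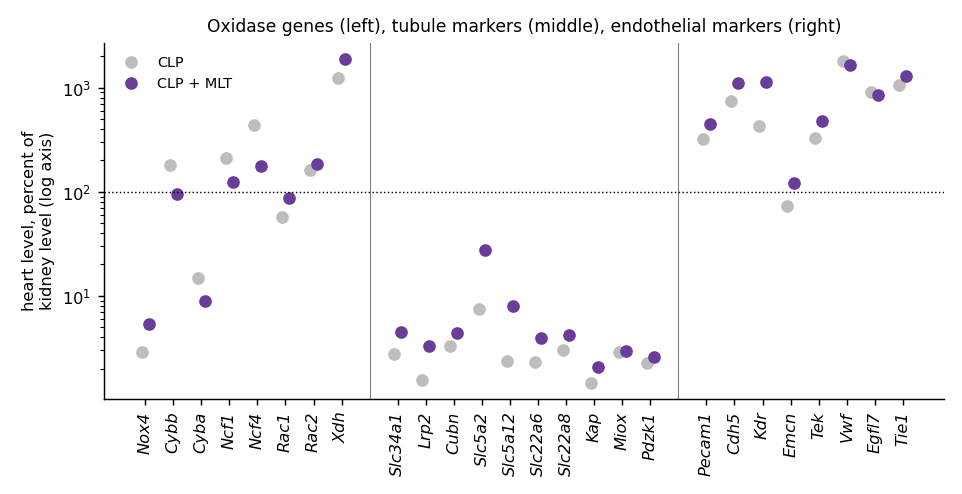
Heart level as a percent of the kidney level (log axis) for 8 of the genes, 10 proximal tubule markers and 8 endothelial markers, with CLP and CLP + MLT shown apart. The dotted line marks equal levels, with no scaling factor shared between the tissues. Nox4 lies among the tubule markers at 2.87% and 5.38%, and Xdh lies within the range of the endothelial markers for CLP (1233%) and above their highest value for CLP + MLT (1894% against 1660%).

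Cyba (ENSMUSG00000006519.11, chr8:122424776-122432930), which both Nox4 and Cybb need as membrane partner, had 6953 counts in the CLP kidney and 5603 in the CLP + MLT kidney, or 283 and 364 CPM. In heart it had 693 and 527 counts, or 42.5 and 32.5 CPM. The level was thus higher in the melatonin library of kidney and lower in that of heart, with log2 ratios of 0.36 (0.31 to 0.41) and −0.38 (−0.55 to −0.22). Neither reached a fold change of 1.5, and with scaling by total reads they were 0.17 and −0.33. Its heart level was 15.0% of the kidney level for CLP and 8.94% for CLP + MLT, both above the median of the tubule markers.

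The phagocyte subunits were rare in kidney. Cybb (ENSMUSG00000015340.10, chrX:9435252-9487771) was covered by 74 counts in the CLP kidney and 84 in the CLP + MLT kidney, or 3.02 and 5.46 CPM. It was called higher, with a log2 ratio of 0.85 (0.39 to 1.33). Ncf4 (ENSMUSG00000071715.12, chr15:78244801-78262580) was called higher too, with 38 and 50 counts, 1.55 and 3.25 CPM and a log2 ratio of 1.06 (0.43 to 1.72). Ncf1 (ENSMUSG00000015950.13, chr5:134220053-134229625) had 94 and 85 counts, 3.83 and 5.52 CPM and a log2 ratio of 0.52 (0.09 to 0.97), under the fold threshold. The counts of Ncf1 are uncertain because 408 bases of its exons overlap those of Gtf2ird2 on the other strand. Gtf2ird2 had a log2 ratio of 0.45 in kidney.

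In heart the same 3 subunits lay close together between the libraries. Cybb had 88 and 85 counts (5.40 and 5.25 CPM), Ncf1 131 and 112 (8.03 and 6.92 CPM) and Ncf4 110 and 94 (6.75 and 5.80 CPM). The log2 ratios were −0.04 (−0.49 to 0.41), −0.22 (−0.59 to 0.16) and −0.22 (−0.63 to 0.19), all with intervals that include 0. As multiples of the CLP level the intervals ran from 0.713 to 1.33, from 0.663 to 1.12 and from 0.646 to 1.14. Differences within these ranges cannot be told from none at this depth.

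Leukocyte markers moved with the phagocyte subunits in kidney. Of 9 leukocyte marker genes, 7 were called higher and 0 lower, with a median log2 ratio of 0.76. Their summed level was 90.6 CPM for CLP and 146 CPM for CLP + MLT. Not all 9 are general to leukocytes, since the myeloid gene Spi1 is among them. Cd52, a surface antigen of leukocytes, went from 131 to 241 counts (log2 ratio 1.55), and the Fc receptor chain Fcer1g (1.10) and the actin regulator Coro1a (0.91) were also called. Ptprc, which encodes the pan-leukocyte antigen CD45, went from 147 to 179 counts (log2 ratio 0.95), and Spi1 from 129 to 122 (0.59). With scaling by total reads, 4 of the 9 were called higher. In heart 3 of the 9 (Cd52, Lcp1 and Coro1a) were called higher and 0 lower, with a median of 0.29 and summed levels of 112 and 148 CPM. None of the 9 was at 0 in any library. In bulk tissue, more cells of a type and more RNA per cell cannot be told apart, and the part of leukocyte number in these values was not tested.

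The markers of single leukocyte types did not move as a block. Of the 13 macrophage and monocyte markers tested in kidney, 3 were called higher, namely Csf1r, the receptor of macrophage growth factor CSF1 (1140 to 1569 counts, 1.13), Itgam (0.80) and lysozyme Lyz2 (1.81), and Cd14 was called lower (787 to 69 counts, −2.83). With scaling by total reads 3 were higher and 3 lower. Adgre1, which encodes F4/80, had 53 and 54 counts in kidney, or 2.16 and 3.51 CPM, a log2 ratio of 0.69 (0.12 to 1.27) that was not called. Cd68, with 157 and 70 counts and a ratio of −0.49 on the log2 scale (−0.92 to −0.08), was not called either. The summed level of all 15 was 193 and 288 CPM. In heart 3 of 15 were called higher and 3 lower, among them Adgre1 (104 to 305 counts, 1.56) and Lyz2 (998 to 2171, 1.13) on one side and Mrc1, C1qa and Cd163 on the other, and the summed levels were 322 and 355 CPM. Of the neutrophil markers, 3 of 7 tested were called lower in each tissue and 0 higher, namely S100a9 (278 to 104 counts, −0.74), Ngp (53 to 2, −3.82) and Ltf (25 to 1, −3.54) in kidney and S100a9 (270 to 154, −0.80), Ngp (37 to 10, −1.83) and Mmp8 (41 to 19, −1.08) in heart. S100a8 was called in neither tissue, with log2 ratios of −0.11 (−0.61 to 0.37) in kidney and −0.56 (−0.86 to −0.27) in heart. Of the 7 tested, 2 lay above 0 in each tissue and were not called. In kidney these were Retnlg (26 and 30 counts, 0.86, 0.07 to 1.69) and Csf3r (54 and 36, 0.09, −0.56 to 0.72). The summed level of all 13 neutrophil markers was 24.2 and 16.9 CPM in kidney and 57.2 and 41.9 CPM in heart. Ly6g and Mpo, which define neutrophils and their granules, were at 0 in all 4 libraries. Lymphocyte markers summed to under 4 CPM in every library, with Cd3e at 1 or 2 counts and Cd79a at 0 or 2. In kidney 3 of the 11 were tested. Cd79b was called higher (12 and 23 counts, 1.56). Cd8a (40 and 13, −0.93) and Lck (32 and 9, −1.12) lay below 0 and were not called.

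The subunits were also counted against the 9 leukocyte genes in the same library, a measure that no scaling enters. Cybb had 33.3 counts per 1000 leukocyte counts in the CLP kidney and 37.4 in the CLP + MLT kidney, Ncf1 had 42.3 and 37.8, and Ncf4 had 17.1 and 22.3. The intervals of all 3 kidney ratios included 0 on the log2 scale, at 0.17 (−0.30 to 0.64), −0.16 (−0.60 to 0.28) and 0.38 (−0.26 to 1.03). In heart Cybb had 48.2 and 35.5, Ncf1 71.7 and 46.8 and Ncf4 60.2 and 39.2 counts per 1000. The heart ratios were lower for Ncf1 (−0.62, −0.99 to −0.24) and Ncf4 (−0.62, −1.03 to −0.21), and that of Cybb just reached 0 (−0.44, −0.89 to 0.01). The list was chosen with the levels of these libraries known.

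**Figure D4:**
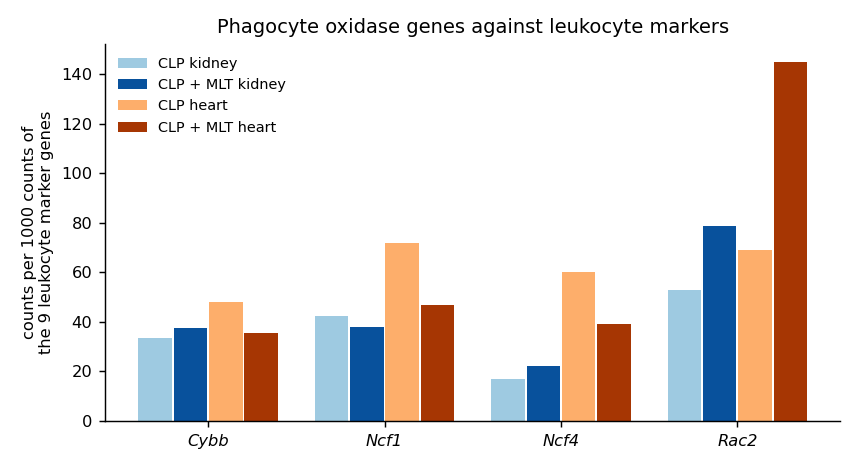
Counts of 4 phagocyte oxidase genes per 1000 counts of the 9 leukocyte marker genes, 1 bar per library, with no error bar because each group has 1 library. Between the kidney libraries, the log2 ratios of Cybb, Ncf1 and Ncf4 all have intervals that include 0. Ncf1 and Ncf4 are lower in the CLP + MLT heart than in the CLP heart, and the interval of Cybb there just includes 0. Rac2 is higher in the CLP + MLT library of both tissues.

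Rac2 (ENSMUSG00000033220.7, chr15:78559167-78572783), the Rac GTPase of blood cells, had 117 counts in the CLP kidney and 177 in the CLP + MLT kidney, or 4.77 and 11.5 CPM. In heart it had 126 and 347 counts, or 7.73 and 21.4 CPM. It was called higher in both tissues, 2.40-fold in kidney (1.90 to 3.07) and 2.77-fold in heart (2.26 to 3.43). The log2 ratios, 1.26 and 1.47, ran between 1.07 and 1.29 in kidney and between 1.44 and 1.52 in heart over the scalings and prior counts tried. Against the leukocyte genes, Rac2 had 52.7 and 78.8 counts per 1000 in kidney and 69.0 and 145 in heart, so it stayed higher on that measure, with log2 ratios of 0.58 in kidney (0.24 to 0.93) and 1.07 in heart (0.77 to 1.38). The calls were repeated with edgeR's exact test under an assumed biological variation (a coefficient of variation, CV), since none could be measured. At a CV of 0.1, 3 members were higher and 1 lower in kidney and 1 higher and 0 lower in heart, where 6.10%, 5.99%, 4.93% and 7.16% of all genes were. At a CV of 0.2, Rac2 was the only member called in either tissue, higher in both, where 1.71% of all kidney genes were higher and 1.95% lower and 1.84% of all heart genes were higher and 2.33% lower. At a CV of 0.4 no member was called, where 0.136% and 0.396% of all kidney genes were higher and lower, and 0.265% and 0.132% of all heart genes.

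Rac1 (ENSMUSG00000001847.14, chr5:143503634-143528036), the GTPase present in most cells, had 4109 and 1789 counts in kidney, or 167 and 116 CPM. The CLP + MLT level was lower, with a log2 ratio of −0.53 (−0.61 to −0.45), just under the fold threshold, and with scaling by total reads it was called lower at −0.72. In heart Rac1 had 1564 and 1644 counts, or 95.9 and 102 CPM, and a log2 ratio of 0.08 (−0.02 to 0.18). Its 50-base stretches of transcript sequence were shared to 50.3% with Daglb, which overlaps 2309 bases of its exons on the other strand, so its counts are uncertain. Daglb itself had a log2 ratio of −0.0023 in kidney and −0.02 in heart. Rac1 and Rac2 shared no stretch of that length.

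Xdh (ENSMUSG00000024066.9, chr17:73883895-73950196) was covered by 1116 counts in the CLP kidney and 398 in the CLP + MLT kidney, or 45.5 and 25.8 CPM. It was called lower, at 0.568 times the CLP level (0.505 to 0.638), a log2 ratio of −0.81. In heart it had 9146 and 7928 counts, or 561 and 490 CPM, and a log2 ratio of −0.20 (−0.24 to −0.15), which was below 0 beyond counting error and well under the fold threshold. The heart level was 12.3 times the kidney level for CLP and 18.9 times for CLP + MLT. Markers of endothelium, the main site of Xdh in heart, ranged from 0.737 to 17.9 times the kidney level for CLP and from 1.20 to 16.6 times for CLP + MLT. Xdh lay within the first range and above the second. Of its 50-base stretches of transcript sequence 9.60% also occur in other genes, among them Ppp2r5a, and reads from such stretches are uncertain.

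In kidney 0 of 8 endothelial markers were called higher or lower, and their median log2 ratio was −0.26. With scaling by total reads 3 of the 8 were called lower. Their summed level was 287 CPM for CLP and 237 CPM for CLP + MLT. Pecam1, an adhesion molecule of endothelium, had 1366 and 580 counts (−0.56). Against these 8 genes, Xdh had 159 counts per 1000 in the CLP kidney and 109 in the CLP + MLT kidney, a log2 ratio of −0.54 (−0.71 to −0.38). In heart it had 390 and 306 per 1000, a log2 ratio of −0.35 (−0.39 to −0.31). There, 1 of the 8 markers was called higher, the VEGF receptor gene Kdr (1759 to 3277 counts), and the summed levels were 1438 and 1601 CPM. None of the 8 was at 0. Of 10 cardiomyocyte genes in heart, 3 were called lower (Myl2, Tnni3 and Actn2) and 0 higher, and Tnnt2 at a log2 ratio of −0.51 was not called. Their summed level was 36589 CPM for CLP and 26126 CPM for CLP + MLT. In kidney, 8 of the 10 cardiomyocyte genes were tested, 4 were called higher and 0 lower, and the median log2 ratio was 0.80. Counts of the 4 were low, at 14 and 35 for Ryr2, 10 and 23 for Myl2, 10 and 24 for Actn2 and 30 and 41 for Tnni3. Of 5 tubular injury genes 4 were called lower in kidney, and the summed level was 539 and 115 CPM. Among them were Havcr1, which encodes kidney injury molecule KIM (1517 to 43 counts), Lcn2 (11346 to 1600) and Sox9 (92 to 11). In heart 2 of the 5 were tested and 1 was called lower, Lcn2 at a log2 ratio of −3.10. The summed level of the 5 there was 210 and 32.9 CPM. The part of tubular injury and of endothelium in the Xdh values was not tested.

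Duox1 (ENSMUSG00000033268.8, chr2:122315672-122347972) was covered by 0 counts in the CLP kidney and 1 in the CLP + MLT kidney. A count of 0 allows up to 3 counts, or 0.122 CPM, in that library. In heart it had 7 and 19 counts, or 0.429 and 1.17 CPM, a log2 ratio of 1.39 (0.14 to 2.94) that was not called (p = 0.028 in the exact binomial test). Of its 50-base stretches 7.95% also occur in Duox2, which had at most 5 counts in any library, and reads from such stretches are uncertain.

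Among 13 other oxidase subunits and maturation factors, 8 passed the filter in each tissue. The median log2 ratio of the list was 0.23 in kidney and −0.10 in heart. In heart 1 was called higher and 0 lower, namely Rac3, with 9 and 34 counts (1.87, 0.84 to 3.17). Cybc1, a chaperone needed for stable Cybb and Cyba protein, lay close together in both tissues, with 572 and 391 counts in kidney (0.12) and 441 and 455 in heart (0.05). Nox1, a colon oxidase, and its organizer Noxo1 were low, with 124 and 98 (log2 ratio 0.33) and with 135 and 107 counts (0.34) in kidney, and neither was called in either tissue. Nox3, an inner ear oxidase, was at 0 in all 4 libraries, and the Duox maturation factors Duoxa1 and Duoxa2 were at 0 in kidney.

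Of 20 genes that act on oxidase activation, 3 were called higher and 1 lower in kidney, and 5 higher and 3 lower in heart. Of all genes tested, 15.0% were called in kidney and 15.6% in heart, both directions together. The median log2 ratios of the 20 were 0.16 and 0.13. With scaling by total reads the kidney calls were 3 higher and 3 lower, and the kidney median was −0.03. The kinase gene Syk (53 to 75 counts, 1.16) was higher in kidney. Vav1, an exchange factor for Rac, was higher in both tissues, with 82 and 93 counts in kidney (0.85) and 213 and 345 in heart (0.70). So was the kinase gene Prkcb, with 32 and 46 counts in kidney (1.18) and 24 and 90 in heart (1.89). Fcgr3, an Fc receptor, was lower in both tissues, with 175 and 60 counts in kidney (−0.87) and 240 and 128 in heart (−0.89). In heart the kinase gene Pak1 (49 to 122 counts, 1.32) and Pik3cg, a phosphoinositide kinase of blood cells (34 to 73, 1.10), were also higher. The formyl peptide receptor gene Fpr2 was lower there, with 137 and 71 counts (−0.93).

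The enzymes around Xdh were listed as 26 genes of purine breakdown, urate transport and molybdenum enzymes, of which 21 passed the filter in each tissue. In kidney 0 were called higher and 4 lower, with a median of −0.23, and 17 of the 21 lay below 0. The 4 were Pnp, which releases hypoxanthine and guanine (950 to 384 counts, −0.63), guanine deaminase Gda (223 to 90, −0.63), Mocos, the sulfurase that activates the molybdenum cofactor of Xdh (299 to 118, −0.67), and sulfite oxidase Suox (917 to 308, −0.90). With scaling by total reads, 6 were lower and 0 higher. In heart 1 was called higher and 1 lower, with a median of −0.19. The lower one was adenosine deaminase Ada, with 59 and 24 counts (−1.27). The higher one was Slc22a12, the tubular urate transporter URAT, with 383 and 647 counts in heart against 37313 and 19531 in kidney. Aldehyde oxidase Aox1, a relative of Xdh, was another abundant gene of heart, with 7117 and 5440 counts there (−0.38) and 59 and 31 in kidney (−0.25), called in neither.

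Distance in pattern was the Euclidean distance of centred log2 CPM over the 4 libraries, with 0.5 CPM added before the log. The genes nearest in pattern were sought for Nox4, Cybb and Xdh among 14591 other genes. For Nox4 they were Gm15217 at a distance of 0.158, the basement membrane collagen gene Col4a3 at 0.178 and Rab17 at 0.193, and 84 genes lay within 0.5. For Cybb they were the pseudogene Gm9104 at 0.077, the small nucleolar RNA Gm24539 at 0.094 and Nr0b2 at 0.095, and 897 genes lay within 0.5. For Xdh they were Ppp1r3c at 0.085, elastin (Eln) at 0.315 and Spock2 at 0.324, and 22 genes lay within 0.5. The added 0.5 CPM shrinks the ratios of genes with low counts, such as Gm9104 (8 and 14 counts in kidney) and Ppp1r3c (26 and 6). Their kidney log2 ratios were 1.41 and −1.39, against 0.85 for Cybb and −0.81 for Xdh. With 4 points per gene these distances describe the libraries only.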

How the data were processed

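Poly(A) RNA from 2 kidney and 2 heart libraries was prepared with the NEBNext Ultra kit. The authors trimmed reads with trim-galore, aligned them to mm10 with HISAT2 (2.1.0) and, per the labels, counted reads per gene with HTSeq. The deposited values are raw counts. The HTSeq version, strand setting and annotation were not given in the sources used. Of the reads placed on a gene or on none, 52.1% to 52.6% fell on no gene, and whether the strand setting fitted the kit was not tested. The 5 closing totals of each file name no gene, held 65.5% to 72.8% of all reads and were left out. Names came from GENCODE M21 (GRCm38, the build of mm10) and matched 55141 of 55401 identifiers. Promoters came from RefSeq.

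Within a tissue, genes averaging at least 10 counts were tested. TMM factors (edgeR 4.0.16, R 4.3.3) were 1.07 (CLP) and 0.935 (CLP + MLT) in kidney and 0.981 and 1.02 in heart. Log2 ratios used a prior count of 0.5. The thresholds of the study (fold change 1.5, p 0.01) were applied with an exact two-sided binomial test on the reads in Python 3.11.15 with scipy 1.17.1, because 1 library per group gives no dispersion. Ratio intervals are 95% Clopper-Pearson intervals. Levels per kilobase used the union of exons. The calls were tested on simulated data. Alternatives were 4 other scalings (DESeq2 1.42.0 for size factors), other filters, prior counts and thresholds, adjusted p-values and assumed variation between mice.

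The members and lists were chosen with earlier results of these data known. Named were all members, marker genes, up to 4 called genes per list and tissue, by largest change, averaging at least 50 counts, and for Nox4, Cybb and Xdh the 3 nearest in pattern. Other genes named, among them Rac3, Ada, Spi1, Cybc1, Nox1, Aox1, Mpo, C1qa, Ngp, Ltf, Mmp8, Slc22a6 and Pecam1, and the leaving out of Kap, were chosen after their values were seen. So were Retnlg, Csf3r, Cd79b, Cd8a, Lck and Ryr2. A gene of the list of other oxidase subunits is not reported here.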

Additional observations from a re-analysis of the deposited data

Results flagged for a closer look

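Cyba, the membrane partner of Nox4 and Cybb, went in opposite directions in the tissues. The log2 ratio, melatonin library over CLP library, was 0.36 (0.31 to 0.41) in kidney and −0.38 (−0.55 to −0.22) in heart, and both intervals of counting error lay clear of 0. The difference between the tissues was not tested, because each tissue had 1 library per group. Of the 8 members with a ratio in both tissues, 6 had ratios of opposite sign, but for the other 5 at least 1 interval included 0. The share of all genes with ratios of opposite sign was not computed. This count therefore has no background beside it and is not read as a trait of the members.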

How the results depend on the processing

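No paired analysis was possible because each group had 1 library, and for the same reason no library could be left out. Of 90 log2 ratios of members under other scalings and a prior count of 5, 87 kept their direction and their side of the thresholds. Rac1 in kidney passed them with scaling by total reads (−0.72), which made 2 members lower in kidney. Cybb in heart changed sign to 0.016 with that scaling and 0.0081 with the upper quartile, as Cd68 in heart did to 0.030 and 0.022. Members called higher in heart numbered 1 (Rac2) with a mean of at least 50 counts, a fold change of at least 2, adjusted p-values, or a coefficient of variation of 0.1 or 0.2, and 0 at 0.4. In kidney, 2 were higher with a fold change of at least 2 (without Cybb) and 2 when genes had to average 50 counts (without Ncf4), 1 was higher at 0.2 and 0 at 0.4, and 0 were lower at 0.2, at 0.4 and with a fold change of at least 2. Over all genes, 23 were higher and 67 lower in kidney at 0.4, against 1296 and 1251 with counting error alone, and 42 and 21 in heart, against 1089 and 1388. The share of all genes called was not computed under the other scalings, filters, prior counts, fold thresholds or adjusted p-values. The member counts under those settings therefore have no background beside them. Of 360 values of other named genes, 348 kept their side. Nox4 in heart, Ncf4 in kidney and Duox1 are limited by depth.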
